A study of Mus musculus with 8 samples.

Results

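Autophagy is the process by which a cell encloses its own cytoplasm in a double-membraned vesicle and delivers it to the lysosome, where acid hydrolases break it down. The ULK1 kinase complex starts the vesicle, a lipid kinase complex around Beclin 1 marks the membrane, and 2 ubiquitin-like conjugation systems attach LC3 and GABARAP proteins to it. In the liver this pathway supplies amino acids and lipids during fasting, and the transcription factors TFEB and TFE3 control many of its genes and those of the lysosome.

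The 41 genes described here were listed by function, with no threshold on their values, and cover initiation, membrane supply, conjugation, the LC3 and GABARAP family, cargo receptors, mitophagy, transcriptional control, the lysosomal membrane and lysosomal hydrolases. All 41 were measured, among 19938 genes in all, each through a probe set annotated to a single gene. They were read in the livers of mice of the strain C57BL6 (BL6J in the sample descriptions) on Affymetrix Mouse Gene 1.0 ST arrays, with 4 arrays in each group. The first group drank hydrogen water, that is, water with dissolved molecular hydrogen, for 4 weeks from the age of 7 weeks, and the controls are named as such in their titles. The treatment text is the same for all 8 samples and mentions hydrogen water in each, so the groups rest on the titles. All livers, those of controls included, were taken after 17 h of fasting, so no value here compares a fasted with a fed liver. Nothing in the labels says that the arrays come from different mice, and p-values measure the spread between these samples, which may in part be technical.

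Signals are given on a log2 scale, on which a difference of 1 is a doubling, and array values are listed in the order of replicates 1 to 4. Array medians over all probe sets lay between 5.27 and 5.37. Every member averaged above 5.87, the median level of the genes tested, and the lowest of these averages was 7.02. Of 12 hepatocyte markers 11 were measured, and albumin (Alb) read 14.29 to 14.41 with hydrogen water and 14.33 to 14.47 in controls. Control 3 stood apart among the controls, with a mean correlation of 0.989 with its own group, against 0.992 to 0.994 for the other arrays.

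The comparison asked whether the transcripts of this pathway differed between fasted livers of the hydrogen water group and those of controls. No difference was detected in any of the 41 genes. With limma and Benjamini-Hochberg adjustment over all 19938 genes, 0 of 41 passed an adjusted p of 0.05, as did 0% of all genes, and the adjusted p of the members lay between 0.703 and 0.997. At an unadjusted p under 0.05 there were 0 of 41 members, where 7.17% of all genes reached it. In 0 of 41 members did the 4 values of one group lie wholly apart from those of the other, against 3.76% of all genes. Hydrogen water lay above control in 18 members and below it in 23, and 48.7% of all genes lay above. The median difference was −0.03 over the members and −0.00 over all genes. The typical precision was alike, with a median standard error (SE) of 0.12 for the members and 0.12 for all genes.

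The size of a difference that these arrays leave possible was bounded for each gene. All 41 of the 95% intervals included 0. Their outermost limits were 0.653-fold, the lower limit for Atg4a, and 1.55-fold, the upper limit for Ulk1; intervals are for each gene singly and are not widened for the number of genes. The differences themselves ran from −0.29 (Atg4a) to 0.28 (Ulk1). They reached a size of 0.2 in 9 members, 4 above control (Ulk1, Wipi1, Ctsz and Atg2a) and 5 below it (Atg4a, Atg10, Atg3, Gabarapl2 and Mcoln1). Atg4a and Gabarapl2 reached it only on the brighter of their 2 probe sets.

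**Figure D1:**
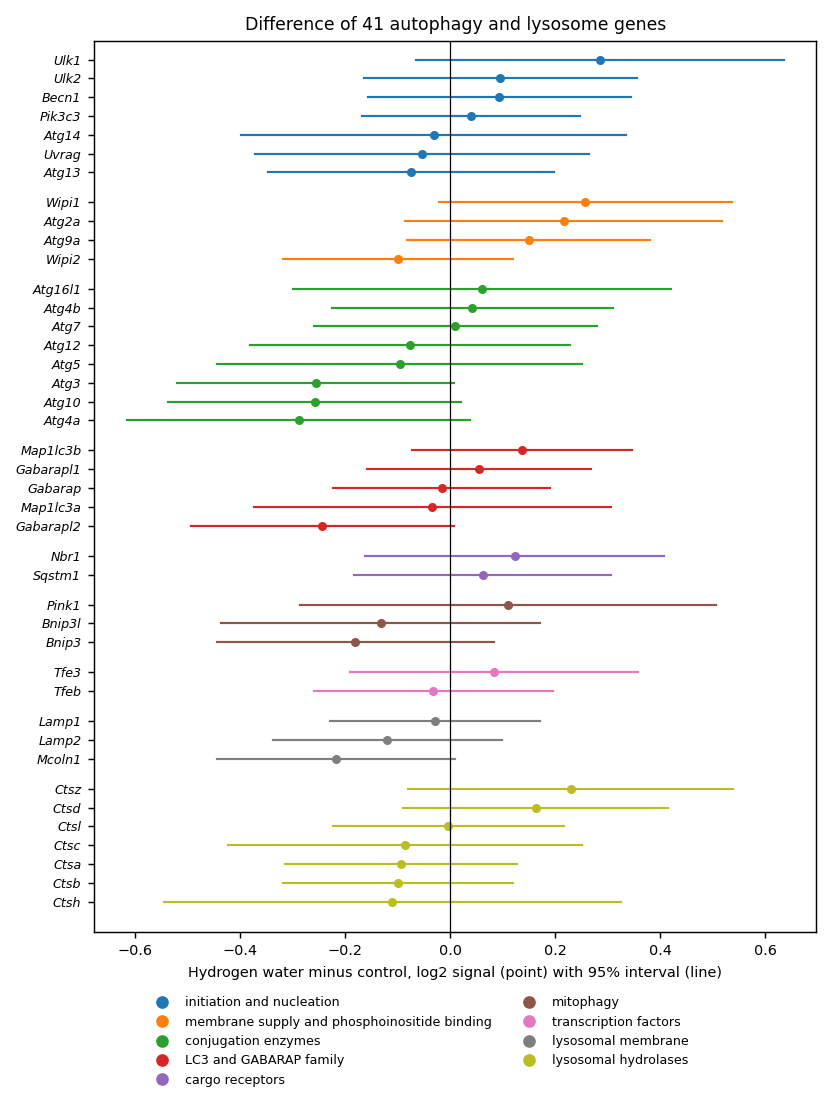
Difference between hydrogen water and control livers for each of the 41 genes (x axis, log2 signal, hydrogen water minus control), grouped by role and ordered by size within a role. Points are limma estimates from 4 arrays a group and lines their 95% intervals; all 41 lines cross 0.

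Initiation was represented by 7 genes, of which 4 lay above control and 3 below, with a median difference of 0.04. Ulk1, the kinase that starts autophagosome formation, read 9.52, 9.26, 9.53 and 9.93 with hydrogen water, against 9.20, 8.94, 9.46 and 9.51 in controls. Hydrogen water 4 was the highest array and control 2 the lowest, and the groups overlapped. Its mean was 9.56 ± 0.28 with hydrogen water and 9.28 ± 0.26 in controls (SD, n = 4 each), a difference of 0.28 (SE 0.16, 95% interval −0.07 to 0.63; limma adjusted p = 0.753). Without hydrogen water 4 the difference was 0.16, without control 2 it was 0.17, and without hydrogen water 2 it was 0.39. Leaving out the array that most favours a difference must shrink or reverse it. Such values, here and below, show the weight of a single array and do not test the difference.

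Becn1 encodes Beclin 1, the scaffold of the lipid kinase complex that nucleates the vesicle. It read 8.59, 8.55, 8.58 and 8.88 with hydrogen water, against 8.69, 8.66, 8.37 and 8.52 in controls. Hydrogen water 4 was the highest and control 3 the lowest value, and the difference was 0.09 (95% interval −0.16 to 0.34). It was 0.02 without hydrogen water 4 and 0.03 without control 3, and reached 0.14 with another array left out. The catalytic subunit of that complex, Pik3c3, differed by 0.04, with all 8 values between 7.39 and 7.63. The other initiation genes were Ulk2, a second ULK kinase (0.10), Atg13, a partner of ULK1 (−0.07), Atg14, which directs the Beclin 1 complex to autophagy (−0.03), and Uvrag, a subunit of an alternative Beclin 1 complex (−0.05).

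Of the 4 genes for membrane supply and phosphoinositide binding, 3 lay above control, with a median difference of 0.18. Wipi1, which binds the lipid made by the Beclin 1 complex, had 8.52, 8.17, 8.63 and 8.65 with hydrogen water, against 8.02, 8.32, 8.30 and 8.28 in controls. Hydrogen water 1, 3 and 4 exceeded every control, whereas hydrogen water 2 lay below all controls but control 1. The difference was 0.26 (SE 0.13, 95% interval −0.02 to 0.54; limma adjusted p = 0.716). It was 0.37 without hydrogen water 2 (limma adjusted p = 0.375) and 0.19 without control 1. Atg2a, a lipid transfer protein of the growing membrane, differed by 0.22 (95% interval −0.08 to 0.52) and by 0.11 without hydrogen water 4, and Atg9a, a lipid scramblase carried on vesicles, by 0.15. Wipi2, which recruits the conjugation machinery, differed by −0.10.

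Among the 8 genes of conjugation, which encode enzymes and the proteins they join, 3 lay above control and 5 below, with a median of −0.09. Atg3, the E2-like enzyme that joins LC3 to lipid, had the lowest unadjusted p of the role. It read 10.48, 10.78, 10.59 and 10.46 with hydrogen water, against 10.80, 10.64, 11.09 and 10.81 in controls. The groups overlapped only through hydrogen water 2 and control 2, and the difference was −0.26 (SE 0.12, 95% interval −0.52 to 0.01; limma adjusted p = 0.703). An exact two-sided permutation test was run on each of the 41 members, and its lowest value was p = 0.0571, for Atg3 and Mcoln1. The smallest that 4 against 4 arrays allow is 0.0286. As the lowest of 41 unadjusted values, 0.0571 is not read as near a threshold. Control 3 was the highest array, and without it the difference was −0.17. With another array left out the difference reached −0.32.

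Atg10, the E2-like enzyme that joins ATG12 to ATG5, read 7.57 to 7.96 with hydrogen water and 7.70 to 8.14 in controls, a difference of −0.26 (95% interval −0.54 to 0.02). Control 4, at 7.70, was the control that overlapped the hydrogen water arrays. The protease genes Atg4a and Atg4b, whose products trim LC3 and GABARAP before conjugation, differed by −0.29 and 0.04; without control 3, Atg4a differed by −0.16. Atg7, the E1-like enzyme of both conjugation systems, differed by 0.01 (95% interval −0.26 to 0.28). Atg5 and Atg12, which are joined to each other, differed by −0.10 and −0.08, and their partner Atg16l1 by 0.06.

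**Figure D2:**
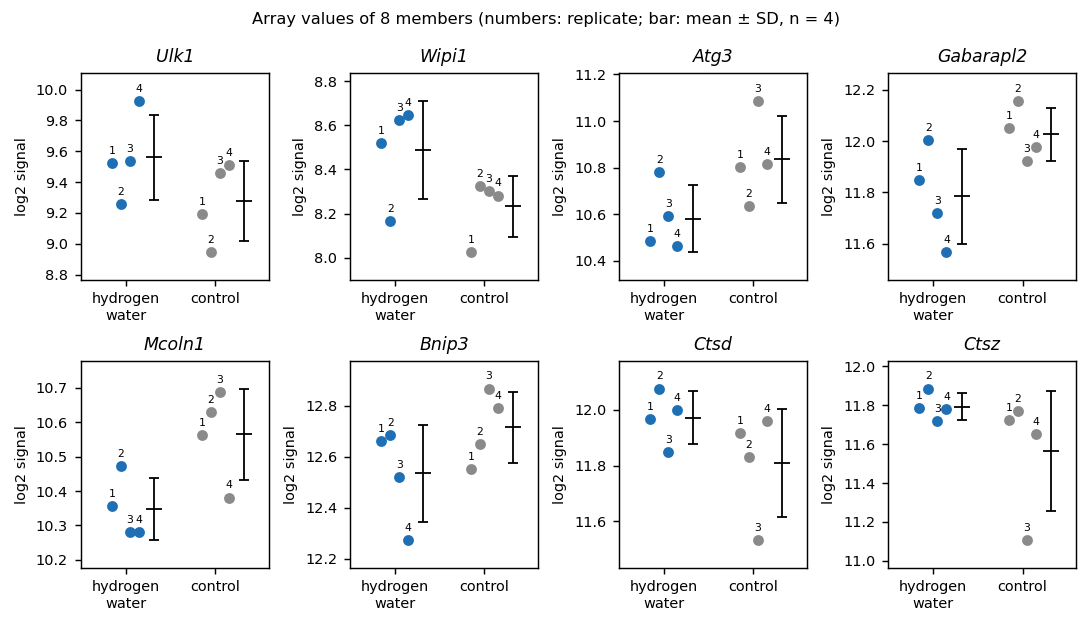
Log2 signal (y axis) of 8 genes on each array, hydrogen water left and control right; points carry the replicate number and bars give mean ± SD (n = 4). The groups overlapped in all 8 genes, and control 3 held the lowest value of Ctsd (11.53) and Ctsz (11.11).

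The 5 genes of the LC3 and GABARAP family encode the ubiquitin-like proteins that coat the autophagosome, and 2 lay above control and 3 below (median −0.02). Map1lc3b, the LC3 form most often used to follow autophagy, had 11.71, 11.71, 11.58 and 11.84 with hydrogen water, against 11.55, 11.61, 11.51 and 11.61 in controls. Hydrogen water 1, 2 and 4 exceeded every control, and hydrogen water 3 lay within the control range. The difference was 0.14 (SE 0.10, 95% interval −0.07 to 0.35; limma adjusted p = 0.815). Gabarapl1 read 12.71, 12.81, 12.60 and 12.86 with hydrogen water, against 12.78, 12.65, 12.66 and 12.68 in controls, a difference of 0.05 (95% interval −0.16 to 0.27).

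Gabarapl2, whose product is also called GATE-16, read 11.85, 12.00, 11.72 and 11.57 with hydrogen water, against 12.05, 12.16, 11.92 and 11.98 in controls. Hydrogen water 1, 3 and 4 lay below every control, and the difference was −0.24 (SE 0.12, 95% interval −0.49 to 0.01; limma adjusted p = 0.703). A dimmer probe set of this gene, averaging 4.93 with hydrogen water and 4.84 in controls, differed by 0.09. That probe set lay below the median of every array (5.27 to 5.37) and had an SD of 0.56 in controls. Probe set numbers run by chromosome, and its number fell among members of chromosome 8, where Gabarapl2 lies. The number of the brighter one fell among members of chromosome 5. Which of the 2 reads the gene was not tested, so neither sign is read as one of the gene. Gabarap differed by −0.02, with a narrow interval (−0.22 to 0.19), and Map1lc3a by −0.03.

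Probe sets could be compared within 5 members that had 2 each. Bnip3 differed by −0.18 on its brighter and −0.15 on its dimmer probe set, Bnip3l by −0.13 on either, Map1lc3b by 0.14 and 0.15, and Atg4a by −0.29 and −0.16. In each of these 4 genes the same 2 arrays were highest on both probe sets, such as control 3 and hydrogen water 2 for Bnip3l, with control 3 at 13.01 and 12.32. RefSeq lists a pseudogene named for Atg4a, Gabarapl2 and Bnip3l (Atg4a-ps, Gabarapl2-ps and Bnip3l-ps), and none so named for Bnip3. Probe set numbers of the other members run by chromosome. In that order the brighter probe sets of Atg4a, Gabarapl2, Bnip3l and Bnip3 fell outside the numbers of the gene's own chromosome. Their dimmer probe sets fell within or next to those numbers. The brighter ones may therefore read another locus. Probe positions were not given, so the locus of each was not tested.

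**Figure D3:**
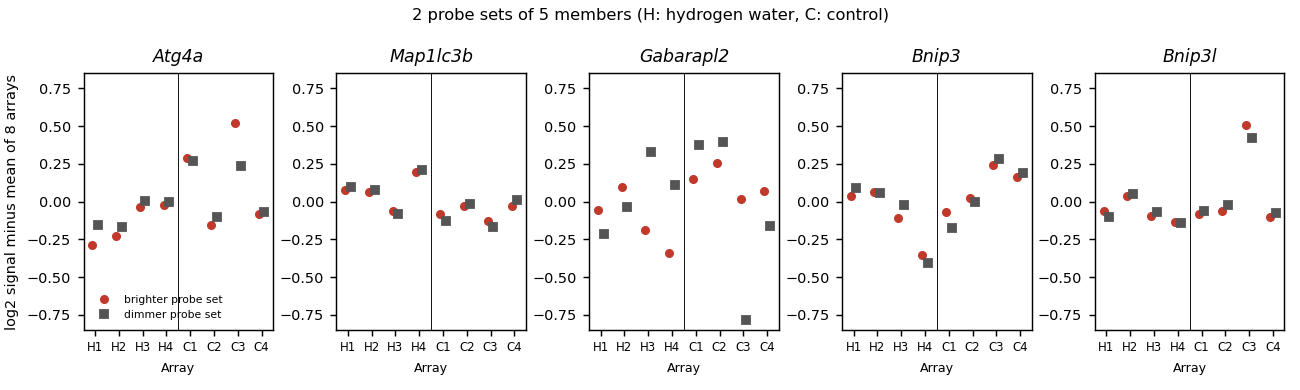
Log2 signal around the mean of the 8 arrays (y axis) on each array for the 2 probe sets of 5 genes, hydrogen water (H) left and control (C) right. Both probe sets of Map1lc3b, Bnip3, Bnip3l and Atg4a placed the arrays alike, whereas those of Gabarapl2 did not, with control 3 at 11.92 on the brighter and 4.10 on the dimmer one.

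Cargo receptors tie ubiquitin-tagged material to LC3. Sqstm1, which encodes p62, read 12.65, 12.49, 12.60 and 12.88 with hydrogen water, against 12.67, 12.64, 12.42 and 12.64 in controls. All hydrogen water arrays but array 4 and all controls but control 3 lay between 12.49 and 12.67, and the difference was 0.06 (95% interval −0.18 to 0.31). It was −0.01 without hydrogen water 4 and 0.00 without control 3, and reached 0.12 with another array left out. Nbr1, a related receptor, had 10.90, 10.60, 10.94 and 11.23 with hydrogen water, against 10.89, 10.85, 10.70 and 10.74 in controls. Its difference of 0.12 (95% interval −0.16 to 0.41) was 0.02 without hydrogen water 4, the highest array. With another array left out it reached 0.23.

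Mitophagy is the removal of mitochondria, through the outer membrane receptors BNIP3 and BNIP3L or the kinase PINK1. Bnip3 read 12.66, 12.68, 12.52 and 12.27 with hydrogen water, against 12.55, 12.65, 12.87 and 12.79 in controls. Hydrogen water 4 was the lowest and control 3 the highest, and the difference was −0.18 (SE 0.12, 95% interval −0.44 to 0.08; limma adjusted p = 0.802). Without hydrogen water 4 it was −0.09, and with another array left out it reached −0.23. Bnip3l differed by −0.13; control 3 stood at 13.01 and the other 7 arrays between 12.36 and 12.53, and without control 3 the difference was 0.02.

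Pink1 had 10.28, 10.58, 10.43 and 10.40 with hydrogen water, against 10.56, 10.47, 9.67 and 10.56 in controls. Control 3 lay far below all other arrays. The difference was 0.11 (95% interval −0.29 to 0.51) with that array and −0.10 without it, and neither passed the test (limma adjusted p = 0.933 and 0.823).

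Tfeb and Tfe3, the transcription factors that bind lysosomal and autophagy gene promoters, did not differ detectably in transcript level. Tfeb read 7.01, 6.88, 7.13 and 7.00 with hydrogen water, against 7.12, 6.98, 7.16 and 6.89 in controls, a difference of −0.03 (95% interval −0.26 to 0.20). Tfe3 read 8.44, 8.28, 8.26 and 8.65 with hydrogen water, against 8.32, 8.47, 8.07 and 8.44 in controls, a difference of 0.08 (95% interval −0.19 to 0.36). Their activity depends largely on phosphorylation and entry to the nucleus, which arrays do not read.

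The element that TFEB binds is centred on CACGTG, so the members' promoters were searched for these letters to show what the genes share beyond their function. RefSeq promoters (build GRCm38.p6, from 250 bases before to 50 bases after the annotated start) were given for 33 of the 41 genes. CACGTG, which reads the same on both strands, was in the promoters of 10 of 33 members (30.3%), against 2187 of 27025 genes with a promoter (8.09%). The longer TCACGTGA, which contains CACGTG, was in 4 of 33 members (12.1%), Atg3, Mcoln1, Ctsa and Ctsd, against 304 of all genes (1.12%). Both also occurred in related genes: of 102 further autophagy and lysosome genes with a promoter, 24 held CACGTG (23.5%) and 8 held TCACGTGA (7.84%). The full palindromic form of the element known as CLEAR, which contains both, was in 0 of 33 members, 2 of those 102 genes (1.96%) and 100 of all genes (0.370%). These shares are not matched for base composition or signal level, and the genes with a promoter were not limited to those measured here. A match is not a binding site.

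The 250 bases before the start are shown for 4 genes. Lamp1 held the most copies of CACGTG, with 4, and Mcoln1, Ctsd and Atg3 held TCACGTGA and a separate CACGTG. Ctsa, whose copies of CACGTG all lay within TCACGTGA, is not shown. The bases are written 5′ to 3′ on the strand of the gene, with CACGTG or TCACGTGA in capitals.
Lamp1 (chr8:13158911-13159160, plus strand): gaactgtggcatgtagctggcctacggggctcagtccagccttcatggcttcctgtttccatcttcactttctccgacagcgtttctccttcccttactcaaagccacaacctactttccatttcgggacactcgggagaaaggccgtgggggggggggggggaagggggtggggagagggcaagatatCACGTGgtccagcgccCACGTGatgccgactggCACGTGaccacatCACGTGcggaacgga
Mcoln1 (chr8:3500269-3500518, plus strand): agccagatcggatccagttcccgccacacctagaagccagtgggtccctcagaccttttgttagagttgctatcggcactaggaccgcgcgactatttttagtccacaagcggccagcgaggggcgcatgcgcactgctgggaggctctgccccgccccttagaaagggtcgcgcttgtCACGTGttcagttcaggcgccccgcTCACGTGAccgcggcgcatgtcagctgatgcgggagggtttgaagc
Ctsd (chr7:142387828-142388077, minus strand): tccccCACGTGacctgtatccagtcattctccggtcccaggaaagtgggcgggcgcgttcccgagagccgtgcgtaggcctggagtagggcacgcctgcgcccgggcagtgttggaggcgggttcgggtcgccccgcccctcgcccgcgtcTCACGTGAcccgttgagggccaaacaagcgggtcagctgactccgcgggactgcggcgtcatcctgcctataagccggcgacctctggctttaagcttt
Atg3 (chr16:45158579-45158828, plus strand): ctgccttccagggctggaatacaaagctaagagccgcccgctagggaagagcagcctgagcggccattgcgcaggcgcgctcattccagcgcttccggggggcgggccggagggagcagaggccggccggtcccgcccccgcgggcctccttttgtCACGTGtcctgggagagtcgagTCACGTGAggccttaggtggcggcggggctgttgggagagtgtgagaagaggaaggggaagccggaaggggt
The first base of the 4 copies before Lamp1 lay 61, 45, 28 and 15 bases before the start. Members with CACGTG in a promoter had a median difference of −0.06, with 2 of 10 above control. Members without it had a median of 0.05, with 13 of 23 above control. Over all genes 48.7% lay above control, and that share was not computed for all genes with CACGTG. No single member passed the test, and the contrast between members with and without CACGTG was not tested.

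Of the lysosomal membrane genes 0 of 3 lay above control. Lamp1, a main glycoprotein of that membrane, read 12.08, 12.09, 12.06 and 12.09 with hydrogen water, against 12.17, 12.13, 11.98 and 12.14 in controls. The hydrogen water values lay within the control range, and Lamp1 had the lowest within-group spread of all members (pooled SD 0.061). Its difference was −0.03 (95% interval −0.23 to 0.17). Lamp2, which also takes part in chaperone-mediated autophagy, differed by −0.12 (95% interval −0.34 to 0.10).

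Mcoln1, the calcium channel of the lysosome, read 10.36, 10.47, 10.28 and 10.28 with hydrogen water, against 10.56, 10.63, 10.69 and 10.38 in controls. Hydrogen water 1, 3 and 4 lay below every control, and the groups overlapped through control 4. The difference was −0.22 (SE 0.10, 95% interval −0.44 to 0.01; limma adjusted p = 0.708). The exact two-sided permutation test gave p = 0.0571, the lowest value among the 41 members, shared with Atg3. Without any one array the difference of Mcoln1 lay between −0.28 and −0.18. Its sign was kept, as it was in all 9 members that differed by 0.2 or more.

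Among the 7 lysosomal hydrolases, which are all cathepsins (Ctsa is also known as protective protein), 2 lay above control and 5 below (median −0.09). Ctsb, a cysteine protease, read 11.19, 11.38, 11.41 and 11.35 with hydrogen water, against 11.58, 11.39, 11.35 and 11.39 in controls. The difference was −0.10 (95% interval −0.32 to 0.12), and control 1 was the highest array. Ctsl, another cysteine protease, read 12.84, 12.97, 12.84 and 12.96 with hydrogen water, against 12.98, 12.91, 12.73 and 13.00 in controls. Its mean was 12.90 ± 0.08 with hydrogen water and 12.91 ± 0.12 in controls (SD, n = 4 each), with a 95% interval of −0.22 to 0.22.

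Ctsd, the aspartic protease cathepsin D, read 11.97, 12.08, 11.85 and 12.00 with hydrogen water, against 11.92, 11.83, 11.53 and 11.96 in controls. Ctsz read 11.78, 11.89, 11.72 and 11.78 with hydrogen water, against 11.72, 11.77, 11.11 and 11.65 in controls. In both genes control 3 was the lowest array and the remaining controls lay close to the hydrogen water values. The difference was 0.16 for Ctsd (95% interval −0.09 to 0.41), 0.07 without control 3 and at most 0.21 with another array left out. For Ctsz it was 0.23 (95% interval −0.08 to 0.54), 0.08 without control 3 and at most 0.30 with another array left out.

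Ctsh, an aminopeptidase, had the widest within-group spread of all members (pooled SD 0.357). It read 10.77 to 11.22 with hydrogen water and 10.40 to 11.44 in controls, where control 3 was the lowest. The difference was −0.11 with all arrays and −0.34 without control 3 (limma adjusted p = 0.942 and 0.519). Ctsa and Ctsc, a dipeptidyl peptidase, each differed by −0.09, with Ctsc at 9.87 to 10.40 with hydrogen water and 9.88 to 10.51 in controls.

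Much of the range of the members fell on 2 arrays. Control 3 held the highest value of the 8 arrays in 12 members and the lowest in 16. It therefore held 34.1% of the 82 highest and lowest values, against 19.1% of those over all genes. Hydrogen water 4 held the highest value in 13 members and the lowest in 6 (23.2%, against 16.2% over all genes). The high values of hydrogen water 4 included Ulk1, Ulk2, Becn1, Atg13, Atg2a, Atg9a, Wipi1, Sqstm1 and Nbr1.

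**Figure D4:**
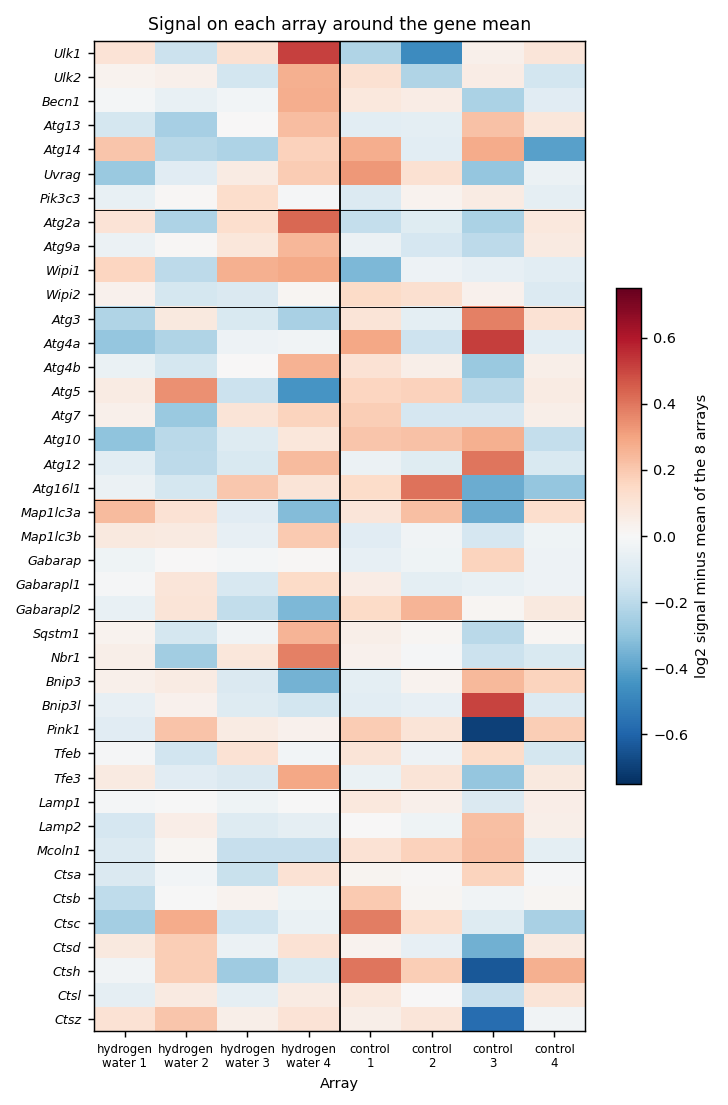
Log2 signal of each gene on each array around the gene's mean over the 8 arrays (colour), with hydrogen water left of the line and control right, and roles separated by horizontal lines. Control 3 is the deepest red or blue cell of many rows, such as Pink1 (9.67), Ctsh (10.40) and Bnip3l (13.01).

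Lysosomal proteases are also abundant in macrophages, so markers of other liver cells are given beside them. Of 14 macrophage and Kupffer cell markers 14 lay above control, 4 of them (28.6%) at an unadjusted p under 0.05, against 7.17% of all genes, and 0 at an adjusted p under 0.05 (limma). The log2 of their summed signal was 10.84 to 11.52 with hydrogen water and 10.58 to 11.24 in controls. Differences of these 14 markers ran from 0.03 to 0.63. The groups did not overlap in 1 of the 14, against 3.76% of all genes. That marker, Clec4f, a lectin of Kupffer cells, read 8.17 to 8.60 with hydrogen water and 7.69 to 8.14 in controls. All 12 measured markers of sinusoidal endothelial cells also lay above control, with a log2 summed signal of 11.94 to 12.59 with hydrogen water and 11.70 to 12.23 in controls, and 4 of them (33.3%) had an unadjusted p under 0.05. Other lists did not share this direction: 4 of 9 stellate cell and fibroblast markers lay above control (median −0.05), 1 of 5 cholangiocyte markers (median −0.15) and 2 of 6 lymphocyte markers (median −0.04). Of the neutrophil markers 5 of 6 lay above control (median 0.03), as did 2 of 2 erythroid markers (median 0.07) and 7 of 11 hepatocyte markers (median 0.01). The order of arrays differed between the hydrolases and the macrophage markers. The median of the hydrolases around each gene's mean was highest on hydrogen water 2 (0.18) and lowest on control 3 (−0.17). On these arrays the macrophage markers stood at 0.13 and 0.01. Macrophage markers were highest on hydrogen water 4 (0.55) and lowest on control 4 (−0.40), and the hydrolases there stood at 0.06 and 0.02. The initiation genes were also highest on hydrogen water 4 (0.23). Sinusoidal endothelial markers were highest on hydrogen water 2 (0.45), as were the hydrolases. They were lowest on control 2 (−0.48), where the hydrolases stood at 0.01. In bulk liver, fewer cells of a type and less RNA per cell cannot be told apart, and the part of these markers in the values was not tested.

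**Figure D5:**
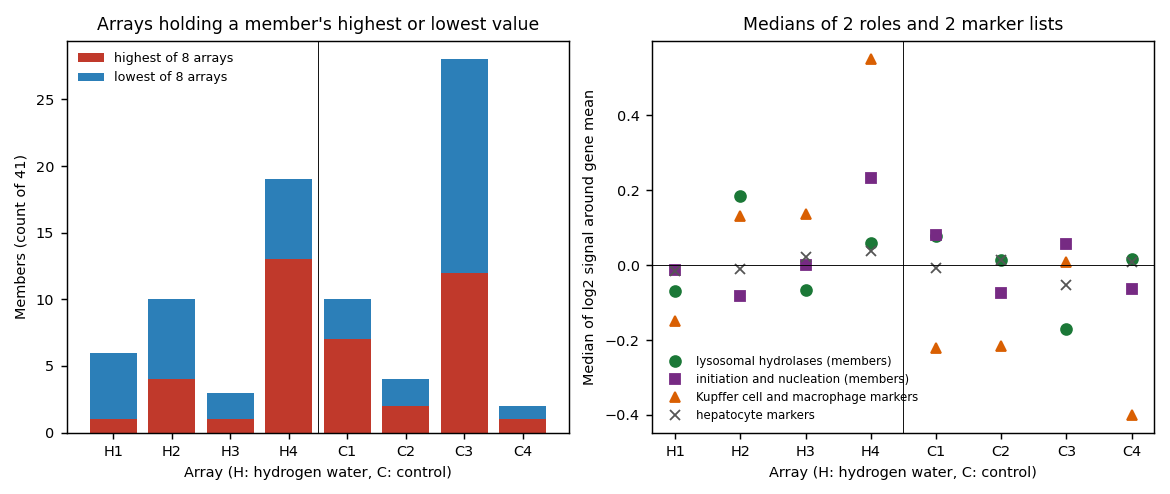
Left, number of the 41 genes whose highest or lowest value fell on each array; control 3 holds 28 and hydrogen water 4 holds 19. Right, median over each list of log2 signal around the gene mean on each array, for hydrolases, initiation genes and 2 marker lists; the macrophage markers reach 0.55 on hydrogen water 4 and −0.40 on control 4. H stands for hydrogen water and C for control.

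A wider set of 129 further autophagy and lysosome genes was listed by function, of which 120 were measured. With limma 0 of 120 passed an adjusted p of 0.05. At an unadjusted p under 0.05 there were 6 above control (3.6% of all genes) and 8 below (3.57% of all genes), or 11.7% of the set beside 7.17% of all genes. Over the alternatives described in the closing section the share ran from 7.50% without control 1, where 6.13% of all genes reached that p, to 19.2% with array weights, where 10.4% of all genes did. The groups did not overlap in 8 of 120 (6.67%, against 3.76% of all genes), 4 above control (1.76% of all genes) and 4 below (2.01% of all genes). The median difference was 0.01.

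In that set 4 genes had an unadjusted p under 0.01, as did 1.54% of all genes. Cln6, an endoplasmic reticulum protein whose loss causes a lysosomal storage disease, read 8.32, 8.61, 8.28 and 8.13 with hydrogen water, against 7.57, 7.86, 7.85 and 8.06 in controls. Ctss, a cysteine protease of antigen-presenting cells, had 6.77, 6.88, 6.94 and 7.32 with hydrogen water, against 6.67, 6.66, 6.32 and 6.41 in controls. In both genes every hydrogen water array exceeded every control, by a mean of 0.50 (SE 0.13) for Cln6 and 0.46 (SE 0.14) for Ctss. Ctss was highest on hydrogen water 4, as were the macrophage markers, and differed by 0.35 without that array. Ctss and the median of these markers ranked the hydrogen water arrays alike, but not the controls. Ctss was lowest on control 3 (6.32), where the macrophage markers had their highest control median (0.01). The markers were lowest on control 4 (−0.40), where Ctss read 6.41. Without control 3 Ctss differed by 0.40. The part of macrophages in the Ctss values was not tested.

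Atp6ap2, an accessory protein of the proton pump that acidifies the lysosome, read 9.23, 9.45, 9.14 and 9.09 with hydrogen water, against 9.69, 9.69, 9.70 and 9.46 in controls. Dnase2a, the lysosomal DNase, read 7.73, 7.93, 7.65 and 7.60 with hydrogen water, against 8.21, 8.03, 8.14 and 7.99 in controls. Both lay below control on every array, by −0.41 (SE 0.11) and −0.36 (SE 0.11). The limma adjusted p of these 4 genes lay between 0.618 and 0.636, so none passed.

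By function, and beside 7.17% of all genes, the wider set gave 5 of 21 genes (23.8%) at an unadjusted p under 0.05 among other autophagy machinery. It gave 1 of 12 among other cargo and organelle receptors, 1 of 14 among subunits of the proton pump and 3 of 33 among other hydrolases. There were 3 of 19 among other lysosomal membrane and accessory proteins and 1 of 21 among genes of nutrient sensing at the lysosome. Each of these counts rests on few genes, and none of the genes passed the adjusted threshold.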

How the data were processed

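Per the labels' protocols, RNA of the 8 fasted livers was prepared with QIAGEN RNeasy Mini and labelled with biotin using an Ambion WT Expression Kit. Groups and replicate numbers come from the sample titles; the treatment text is identical for all samples and was not used. The authors deposited a table of log2 signals for each array; the submitters' processing notes name Affymetrix Expression Console. Its summary method and version, and a genome build, were not given in the sources used here, and the log2 scale was read from the values.

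The table held 35556 probe sets, of which 21789 named 1 gene, 1621 several and 12146 none here. Platform annotation named the genes, and Entrez identifiers gave their current RefSeq symbols (GRCm38.p6); 19856 of 19938 genes matched. The brightest probe set stood for a gene, with no filter on level. Genes were tested with limma 3.58.1 (R 4.3.3; lmFit, eBayes, two-sided, 6 residual and 5.88 prior degrees of freedom), with Benjamini-Hochberg adjustment over 19938 genes at 0.05. Each member was also given an exact permutation test over 70 assignments. Motifs were searched and figures drawn in Python 3.11.15 (matplotlib 3.10.9).

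Members and lists were drawn up by function, but, like the naming rules, with earlier results of these data known. Values on every array are given for members with an unadjusted p under 0.05 or groups wholly apart (0 each), the member of each role with the lowest p, and 12 genes named whatever their values; of the wider set, only genes with an unadjusted p under 0.01 get array values. The alternatives are listed in the closing section. Tested on simulated data of the hydrogen water and control arrays (19938 genes, 500 changed genes of each size over the runs, sizes mixed within a run), limma called 32.0% of genes changed by 0.5, 86.0% at 1 and 97.2% at 1.5 on the log2 scale. Larger changes mixed into the same run ease the adjusted threshold for genes changed by 0.5. In the real comparison 0 genes passed, and the lowest adjusted p of any gene was 0.558 (limma). The 32.0% may therefore overstate what these arrays could detect at 0.5. Whether an array that stands apart from its group lowers these shares was not tested. Precision is limited by there being 4 arrays in each group.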

Additional observations from a re-analysis of the deposited data

Results flagged for a closer look

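In 10 of the 82 sets of 4 values (41 genes in 2 groups), 1 array lay far from the other 3. About 5% of independent sets would do so by chance, but these sets share the same arrays. The share over all genes was not computed, so the count is not read as a trait of the members. Of the 10 values 7 were on control 3, which also held 19.1% of the highest and lowest values of all genes. Pink1 read 9.67 there, against 10.47 to 10.56 on the other controls, and Bnip3l 13.01, against 12.40 to 12.44. Sqstm1 read 12.42 on control 3 (other controls 12.64 to 12.67), Atg4b 7.33 (7.65 to 7.71), Atg12 8.06 (7.55 to 7.61), Gabarap 13.05 (12.83 to 12.86) and Ctsa 11.28 (11.11 to 11.13). The other values were Becn1 at 8.88 on hydrogen water 4 (the other hydrogen water arrays 8.55 to 8.59), Wipi1 at 8.02 on control 1 (other controls 8.28 to 8.32) and Atg10 at 7.70 on control 4 (other controls 8.08 to 8.14).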

How the results depend on the processing

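The alternatives were quantile normalization, centring each array on its median, leaving out dim probe sets, averaging the probe sets of each gene, admitting those annotated to several genes, a variance prior with trend and robust fitting, weighting the arrays, the replicate block, each array left out in turn and, chosen after seeing the data, the dimmer probe set of genes with more than 1. With limma, 0 of 41 members passed the adjusted threshold under all 17, the lowest adjusted p of any member being 0.375. Over all genes the count was 0 under 15 of them and lay between 0 and 1 with 1 array left out, where Sucnr1 passed without control 2 (limma adjusted p = 0.0435) and Aqp8 without control 3 (0.0205); neither is a member. At an unadjusted p under 0.05, where the main count of members was 0, there were 6 of 41 without hydrogen water 2 (9.22% of all genes), 5 with centring (8.01%), 4 with array weights (10.4%), 3 without control 4 (7.22%), 2 without control 2 (5.69%) or control 3 (8.57%), and 1 with quantile normalization (8.86%), the replicate block (6.59%) or without hydrogen water 4 (5.59%). The median difference of the members lay between −0.03 and 0.02 with 1 array left out, and was 0.00 with quantile normalization and −0.07 with centring. The median over all genes was −0.04 under either scaling. The number of members above control, 18, lay between 17 and 23 with 1 array left out and was 21, 17 and 16 with quantile normalization, centring and array weights. Without control 3, 10 members differed in sign, Pink1 and Bnip3l among them, and none of these was a call. In the wider set the 14 genes at an unadjusted p under 0.05 became 23 of 120 with array weights (10.4% of all genes) and 9 without control 1 (6.13%). Gabarapl2 differed by −0.08 with the mean of its probe sets and 0.09 with the dimmer one. The shared replicate numbers showed no pairing of the samples. Deviations of same-numbered arrays correlated between −0.16 and 0.06, and no array correlated best with its own number. With the replicate block 0 members passed. The block cannot move a difference when both groups hold the same numbers, so the unchanged median of −0.03 says nothing about pairing.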
